A study of Saccharomyces cerevisiae with 16 samples.

Results

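The libraries described here are the 6 made from trm10∆ yeast spheroplasts that were electroporated without any RNA, out of 16 in the series. Their labels give 3 libraries of polysomal mRNA and 3 of total mRNA, paired here by the replicate number in their titles. The comparison asks which mRNAs made up a larger or smaller part of the polysomal pool than of the total pool when no RNA was introduced. In the rest of the series, the same strain received rancRNA_18 or rancRNA_18-M2. Of these, the 3 polysomal and 3 total libraries of rancRNA_18-M2 serve below as a separate pair of groups.

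All groups carry the deletion of TRM10, which encodes a tRNA methyltransferase, so nothing here compares the deletion with an intact strain. TRM10 had 5, 4 and 2 reads in the polysomal libraries and 0, 3 and 0 reads in the total libraries, in the order of replicates 1, 2 and 3 that is used throughout. Spheroplasts are yeast cells stripped of most of their cell wall. Polysomal RNA came from the pooled polysome-containing fractions of a density gradient, total RNA came from the cleared lysate, and both were enriched for poly(A) tails before sequencing.

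A polysome is an mRNA with several ribosomes on it. An mRNA that is often initiated carries many ribosomes and moves deep into a gradient, while mRNAs that are stored, retained in the nucleus or poorly initiated stay near the top. Long coding sequences have room for more ribosomes than short ones, and abundant housekeeping mRNAs of growing yeast, above all those for ribosomal proteins, are known for efficient initiation.

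The no RNA polysomal libraries held 17902959, 18559780 and 31148081 reads in genes, and the total libraries 16691019, 18053569 and 18534771. Between 6386 and 6486 genes had a read in each library. Levels are CPM, read counts scaled to library size, after TMM scaling, which sets the libraries to a common scale under the assumption that most genes do not differ. No spike-in is named, so a log2 fold change of polysomal over total mRNA says how a gene stands relative to the other genes of its pool, and the share of all mRNA that sat on polysomes was not measured. Sets of the same number resembled each other: the first 2 principal components of the 6 libraries held 41.14% and 27.26% of the variance, and replicate 3 lay apart from replicate 1 within both fractions on the first of them. Nothing in the labels says whether the replicates were separate cultures, so p-values measure a spread between libraries only. That spread is pooled over the 14 libraries of 5 groups in the fit, after differences between replicate numbers are taken out. A value of 3 reads corresponds to 0.0963 to 0.18 CPM before scaling.

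Of 7126 genes, 6016 had enough reads to be tested by edgeR's quasi-likelihood test with the replicate number as a block. At a Benjamini-Hochberg adjusted p under 0.05, 762 genes (12.7%) were higher and 578 (9.61%) were lower in polysomal than in total mRNA, 22.3% in either direction. Of the 762, 755 were higher in all 3 pairs, and of the 578, 573 were lower in all 3 pairs. The differences were small: the only gene called higher with a log2 fold change over 1 was YPR170W-B, a short open reading frame at 1.10, whereas 71 genes were called lower with a value under −1. The highest value among genes with a mean of at least 20 CPM was 0.94, for the thioredoxin gene TRX2. These calls rest on the pairing, since the same test without the replicate block called 0 genes higher and 12 lower, with 637 genes at an unadjusted p under 0.05, and an unblocked DESeq2 fit called 44 higher and 71 lower. Leaving out both no RNA libraries of replicate 2 gave 399 higher and 265 lower, leaving out replicate 2 in every group of the fit gave 116 and 87, and leaving out only the total library of replicate 3 gave 505 higher and 247 lower. The lowest polysomal library lay above the highest total library for 256 of the 762, and the highest polysomal library lay below the lowest total library for 304 of the 578. Among all genes tested the same held for 363 (6.03%) and 458 (7.61%).

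Most ribosomal protein mRNAs were higher on polysomes. Of 137 genes for cytosolic ribosomal proteins tested, 119 were higher in polysomal mRNA, 1 was lower and 17 did not pass the test, against 12.7% higher among all genes. Their median log2 fold change was 0.634, and −0.025 over all genes. The medians of the 3 pairs were 0.406, 0.873 and 0.557, so the extent differed between pairs while the direction did not. Together these genes held 33.21, 31.86 and 26.79% of reads in the polysomal libraries, against 28.12, 21.91 and 20.66% in the total libraries. Both subunits took part. Of 56 genes of the small, 40S subunit 51 rose (median 0.654), and of 81 of the large, 60S subunit 68 rose and 1 fell (median 0.608). Without replicate 2 the calls higher were 33 for the 40S and 46 for the 60S genes, and without the block there were 0 for either.

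The ribosomal protein genes of largest change encode 40S proteins. RPS10B had 1989, 1745 and 1264 CPM in polysomal libraries, against 996, 886 and 743 CPM in total libraries. Each polysomal library was above all 3 total libraries, and the log2 fold change was 0.92 (SE 0.14, edgeR adjusted p 0.00035). Its near-identical partner RPS10A stood at 3203, 4211 and 2544 CPM in polysomal mRNA and 2162, 1800 and 1407 CPM in total mRNA. The groups again did not overlap (0.89, SE 0.14), as was also the case for RPS17A (0.87, SE 0.17) and its partner RPS17B (0.82, SE 0.12). Of the 60S genes, RPL40A, whose product is made as a fusion with ubiquitin, had 3658, 3038 and 1974 CPM in polysomal libraries and 2025, 1537 and 1202 CPM in total libraries. Here the polysomal library of replicate 3 lay just under the total library of replicate 1, yet each pair showed a gain (0.85, SE 0.14). RPL20B and RPL20A, 2 copies of another 60S gene, rose by 0.82 (SE 0.11) and 0.78 (SE 0.11). Reads of such pairs can be split between the copies by the counting, so the single copies are uncertain. The stalk proteins, which recruit elongation factors, included RPP1A at 0.77 and RPP0, the longest of them, at 0.39, both called higher.

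Most of the 17 ribosomal protein genes that did not pass had coding sequences of over 600 bases. RPL3, with 1164 coding bases, had 4594, 2498 and 4170 CPM in polysomal libraries and 5134, 3424 and 4195 CPM in total libraries, with a log2 fold change of −0.19 (SE 0.16) that missed the threshold. RPL4A at −0.04 and RPL4B at −0.06, with 1089 coding bases each, also lay near 0, as did RPL5 at 0.12 and RPS2 at 0.16. RPS9A at −0.23 and RPL22B at −0.36 stood apart from genes of like length. Both carry an intron. The values were 226, 104 and 155 CPM in polysomal against 251, 128 and 184 CPM in total mRNA for RPS9A, with the groups overlapping and each pair lower. Of the ribosomal protein genes, 83 of 89 with an intron were higher (median 0.654) and 36 of 48 without one (median 0.563). Among all other nuclear genes, 49 of 175 with an intron were higher and 13 lower (median 0.108), against 592 and 512 of 5401 without (median −0.0295). The plot of ribosomal protein genes by coding length shows the same order, with the gain fading above about 600 bases.

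**Figure D1:**
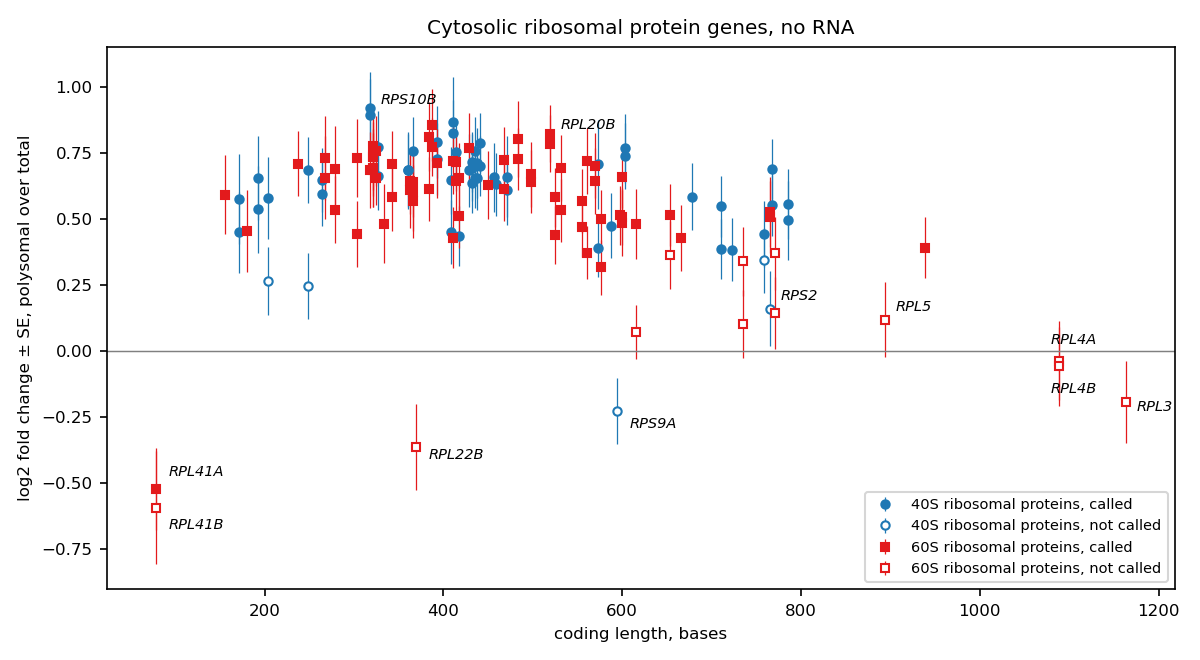
Log2 fold change of polysomal over total mRNA, with its standard error as a bar, against coding length in bases for the 137 cytosolic ribosomal protein genes with no RNA (3 polysomal and 3 total libraries). Circles are 40S and squares 60S genes, filled where the gene passed an adjusted p under 0.05. Most lie between 0.4 and 0.9, RPL3, RPL4A, RPL4B and RPL5 at the long end lie near 0, and RPL41A and RPL41B at the short end lie below 0.

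The exceptions at the short end were RPL41A and RPL41B, both for the smallest 60S protein. RPL41A had 1138, 1242 and 587 CPM in polysomal libraries, against 2037, 1249 and 919 CPM in total libraries. The groups overlapped, with pair 2 about level and the other pairs lower, and the log2 fold change was −0.52 (SE 0.15, edgeR adjusted p 0.022). RPL41B had 1238, 1280 and 512 CPM in polysomal mRNA and 2317, 1137 and 949 CPM in total mRNA, was higher in pair 2, and missed the threshold at −0.59 (SE 0.21, edgeR adjusted p 0.059). RPL41A lost its call in 6 of the 9 fits that left out a library or a pair, where its value ran between −0.743 and −0.335. Their whole coding sequences from the RefSeq assembly R64 are shown because their length sets them apart from every other ribosomal protein gene. Both lie on the minus strand, hold 25 codons before the stop and differ at 1 of 78 bases, so that reads can hardly be told apart between them. Capitals mark the start and stop codons.

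RPL41A: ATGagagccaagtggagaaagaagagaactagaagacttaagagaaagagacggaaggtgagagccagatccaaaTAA

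RPL41B: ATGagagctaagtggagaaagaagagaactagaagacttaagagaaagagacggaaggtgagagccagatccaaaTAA

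The same dependence on coding length ran through the genome. Among 5713 nuclear protein-coding genes tested, the Spearman correlation of the log2 fold change with coding length was −0.366 (pairs −0.28, −0.401 and −0.261), and −0.333 without the cytosolic ribosomal protein genes. It is given as a description across genes of the same 6 libraries. The median was highest for coding sequences of 250 to 299 bases, at 0.485, with 46 of 76 genes higher and 1 lower. It was 0.0844 for 600 to 999 bases, where 209 of 1178 were higher and 76 lower. From 1500 to 2999 bases it was −0.0986, and the balance was turned round, with 20 of 1703 higher and 216 (12.7%) lower. The decline did not go on from there: of 516 genes of 3000 bases and over, 26 (5.04%) were lower, against 9.61% over all genes, and the median was −0.0505. In that class 1 was higher, YGR027W-B, the open reading frame of a Ty1 retrotransposon, a repeated element. Altogether 484 of the 760 nuclear genes called higher had fewer than 600 coding bases, as did 1042 of the genes tested.

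Below 150 bases the pattern broke off. None of 32 such genes was called higher and 5 were lower, with a median of −0.207. The 5 were RPL41A, YKL106C-A, YGL188C-A, YOL038C-A and PAU9, named here after their values were seen. From 150 to 199 bases the median was 0.37, with 17 of 49 higher and 2 lower. Short genes that went against the trend include YKL068W-A (−1.02, 237 coding bases) and COX14, an assembly factor of cytochrome oxidase (−0.35, 213 coding bases), whose call was lost in 6 of 9 fits with a library or pair left out. MIN10, with 264 coding bases, had 3.12, 2.66 and 4.28 CPM in polysomal libraries and 21.1, 14.7 and 24.8 CPM in total libraries. It was picked after its values were seen. Its log2 fold change of −2.56 (SE 0.16) was one of the 12 calls made without the replicate block too. Among long genes, the calls lower included MNN4 of cell wall mannan synthesis (−0.57), HBT1 (−0.48) and the topoisomerase gene TOP2 (−0.45), of which MNN4 and TOP2 lost their calls without replicate 2 and HBT1 in 5 of the 9 fits. Abundance was taken as total CPM per kilobase of coding sequence, so coding length and the total libraries of the fold change both enter it. In the highest quintile, with a median coding length of 603 bases, 501 of 1143 genes were higher and 84 lower (median log2 fold change 0.261). In the lowest, with a median coding length of 2070 bases, 6 and 45 of 1143 were called (median −0.0568). The number of calls also depends on the reads a gene has. The separate parts of length and abundance in the trend were not tested.

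**Figure D2:**
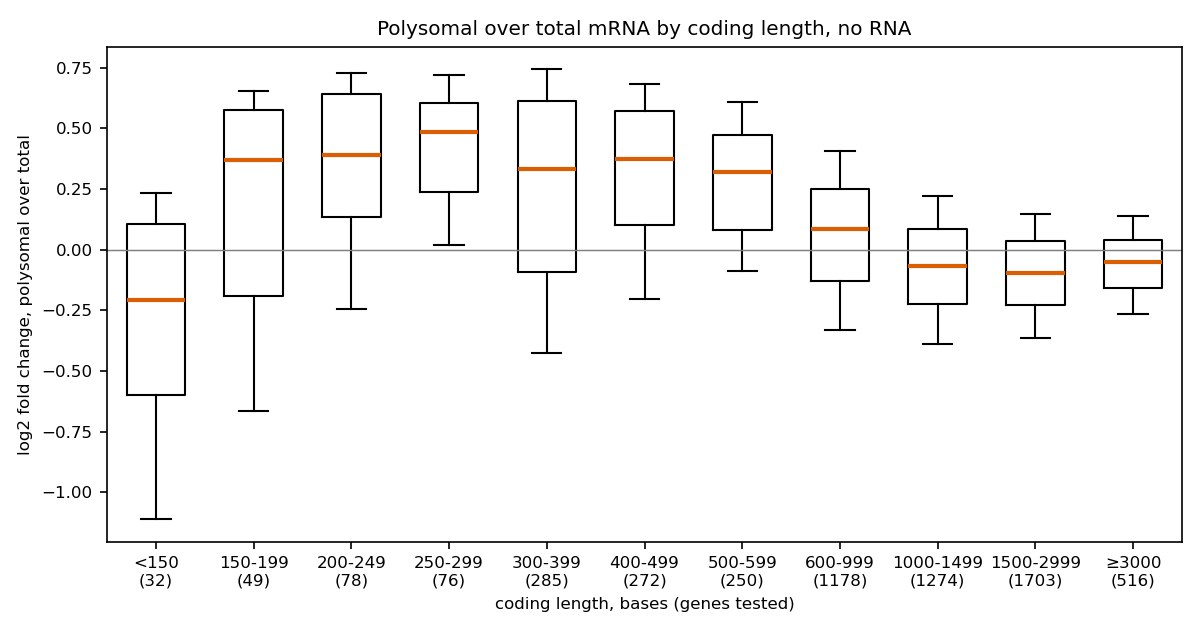
Log2 fold change of polysomal over total mRNA with no RNA for nuclear protein-coding genes in 11 classes of coding length in bases, with the number of genes in brackets. Boxes span the quartiles, the line is the median and whiskers reach the 10th and 90th percentiles. The median is −0.207 under 150 bases, peaks at 0.485 for 250 to 299 bases and is −0.0505 for 3000 bases and over.

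Bases around the start codon were compared because an A at position 3 before it is the best known feature of efficient yeast start sites. Such an A was found in 115 of the 137 ribosomal protein genes (83.9%), in 60.9% of the other nuclear genes tested, in 65.8% of the 641 other genes called higher and in 68.8% of the 525 other genes called lower. The share was thus greater in ribosomal protein genes, and much the same in the other genes called higher and lower. The contexts of 16 genes described in the text, CRS5 being annotated as a pseudogene, are printed from R64, read on the coding strand, with 12 bases before and 6 after the start codon. They are genomic bases with introns not taken out. Some printed bases can therefore be missing from the mRNA where a gene carries an intron, as RPS10A, RPS10B, RPS17A, RPL40A and HAC1 do. Capitals mark the base at position 3 before the start codon, and the start codon itself. Genes called higher come first.

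RPS10A: taagtagccAagATGttgatg

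RPS10B: taaccgttcAagATGttgatg

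RPS17A: agcaataacAaaATGgtatgt

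RPL40A: caagattcaAacATGcaaatg

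TRX1: tcgatacaaAtaATGgttact

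TRX2: aacacatcaAtaATGgtcact

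VMA7: agtaactaaAtcATGgctgag

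HSP12: ctaaatacaAcaATGtctgac

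Genes called lower follow.

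HAC1: acaaccgccActATGgaaatg

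TOS6: tatcaaaatAcaATGaaattc

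AQR1: gtcgaatcaGcaATGtcacga

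NPL3: accataaggAtaATGtctgaa

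NAF1: acagtgctaAtcATGagcgat

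DED1: gcatttcatAttATGgctgaa

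CRS5: tactcaataAatATGactgta

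MRPL32: agcaaacaaActATGaattct

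All 8 of the genes called higher and 7 of the 8 called lower had A at this position, and AQR1 had G.

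Genes for translation factors were called in both directions. Of 27 initiation factor genes 3 rose and 4 fell, a share close to that over all genes, with a median of −0.0686. TIF11, encoding eIF1A, a small factor that binds the 40S subunit, had 1153, 1262 and 761 CPM in polysomal libraries, against 703, 639 and 419 CPM in total libraries. Every polysomal library was above every total library (0.85, SE 0.11, edgeR adjusted p 8.1e-05). SUI1, encoding eIF1, the partner of eIF1A in choosing the start codon, rose by 0.64 (SE 0.12), and CDC33, the cap-binding protein eIF4E, by 0.35. DED1, an RNA helicase that opens structured leaders, had 23.4, 34.4 and 62.0 CPM in polysomal mRNA, against 35.8, 69.3 and 105 CPM in total mRNA. Its level varied more between replicates than between fractions, but each pair fell (−0.80, SE 0.13). FUN12 (−0.43), GCD11 (−0.40) and TIF5 (−0.37), for the subunit joining factor eIF5B, a subunit of eIF2 and eIF5, were lower too. Without replicate 2 the list had 3 higher and 2 lower.

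For elongation and termination, 2 of 14 genes rose (14.3%) and 3 fell (21.4%), against 12.7% and 9.61% over all genes. HYP2 (0.51) and ANB1 (0.65), the copies encoding eIF5A, were the ones higher. TEF1 for eEF1A (−0.57), SUP35 for the release factor eRF3 (−0.48) and YEF3 for the fungal elongation factor eEF3 (−0.37) were lower. SUP35 had 190, 148 and 177 CPM in polysomal libraries and 231, 242 and 244 CPM in total libraries, without overlap. None of 19 cytosolic tRNA synthetase genes rose and 6 fell (31.6%), among them DPS1 for aspartate (−0.58), FRS2 for phenylalanine (−0.44) and SES1 for serine (−0.41). The synthetase median was −0.227. These counts turned on single libraries: without replicate 2, without its polysomal library alone, or without the total library of replicate 3, 0 synthetase genes and 0 elongation and termination genes remained lower, and SUP35, DPS1 and FRS2 each lost their calls. HYP2, ANB1 and SES1 also lost theirs without replicate 2.

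Of 105 genes for factors that build ribosomes 28 fell, 3 rose and 74 did not pass, against 9.61% lower over all genes, with a median of −0.22 (−0.0234 in pair 1 and −0.4 in pair 2). EBP2, which acts in processing of 60S precursors, had 159, 125 and 106 CPM in polysomal libraries, against 224, 217 and 176 CPM in total libraries. The groups were apart (−0.67, SE 0.10, edgeR adjusted p 0.00043). The nucleolar protein gene NSR1 (−0.68), the kinase gene RIO1 (−0.55) and ENP1 (−0.55), the last 2 of 40S maturation, showed like values. The 3 that rose were NHP2 (0.39) and NOP10 (0.37) of the box H/ACA particles that modify rRNA, and LOC1 (0.36). NAF1, which assembles those particles and is not in the list, fell by 0.95 on the log2 scale, with 41.2, 48.4 and 43.9 CPM in polysomal and 76.3, 97.6 and 84.9 CPM in total libraries. Without replicate 2 the list had 11 genes lower, and without polysomal replicate 1 it had 40.

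In the transcription and RNA-processing machinery several small subunits were higher. Of 31 RNA polymerase subunit genes 9 rose (29%, against 12.7% over all genes) and 0 fell. RPC11 of polymerase III had 106, 98.3 and 67.4 CPM in polysomal libraries and 50.5, 60.4 and 40.8 CPM in total libraries, with no overlap (0.83, SE 0.14). RPB11 (0.78) of polymerase II and RPB10 (0.58), shared by all 3 polymerases, rose as well. Of 15 Lsm and Sm proteins, which form rings on U-rich RNA, 7 rose (46.7%) and 0 fell (median 0.413), led by LSM7 (0.70) and LSM1 (0.66), and 3 were called without replicate 2. In mRNA decay, 1 of 26 genes rose, CDC36 (0.43), and 1 fell, MOT2 (−0.30), both of the Ccr4-Not complex and both shares below those over all genes. CDC36 lost its call in 3 and MOT2 in 8 of the 9 fits with a library or pair left out.

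**Figure D3:**
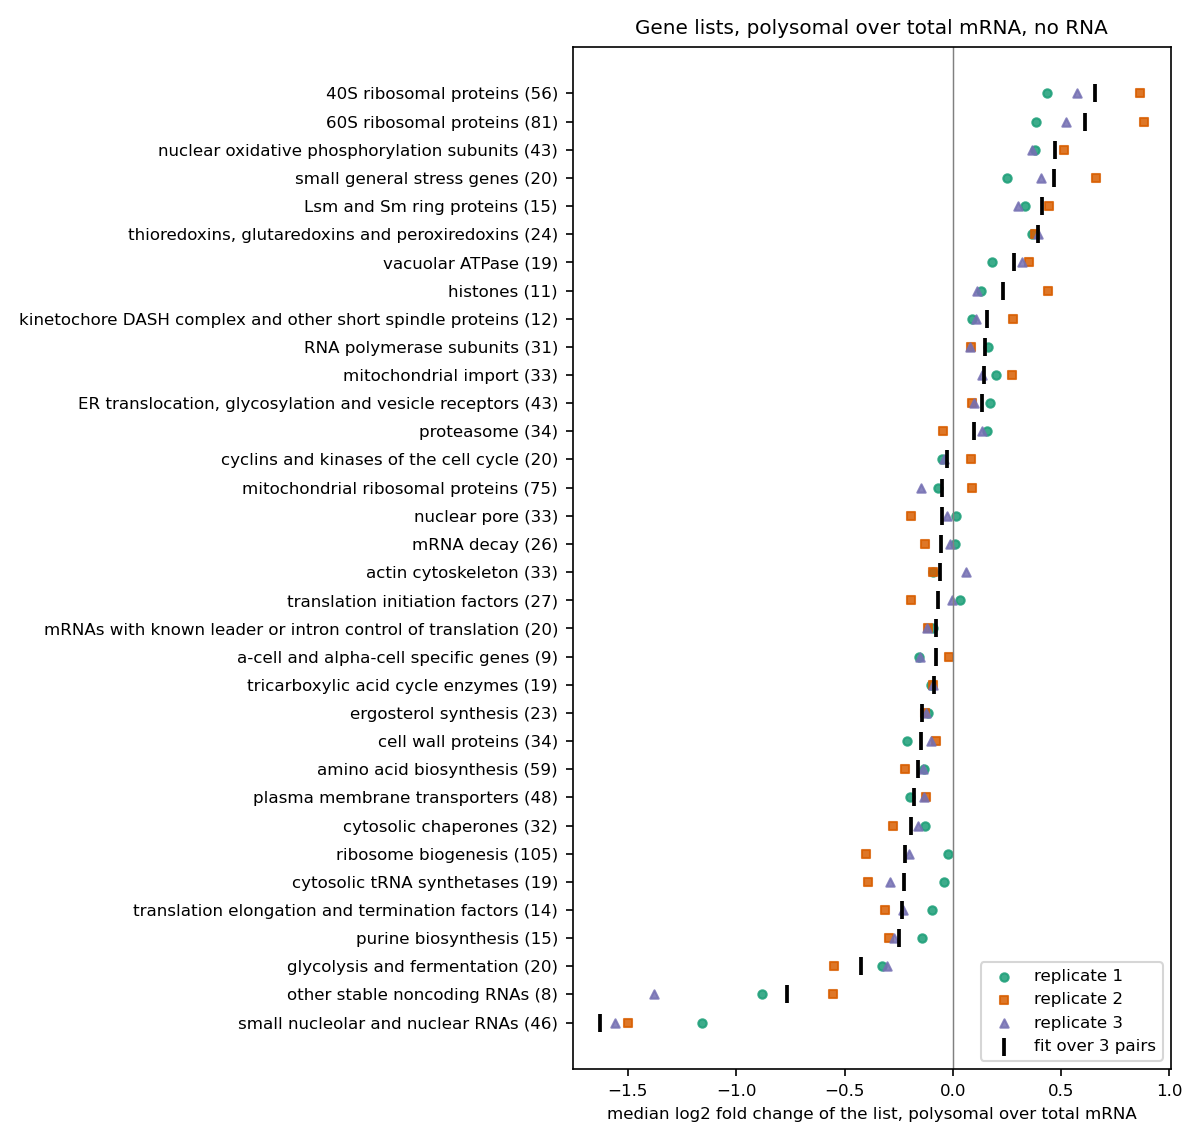
Median log2 fold change of polysomal over total mRNA for 34 gene lists with no RNA, with the number of genes tested in brackets. Bars mark the fit over the 3 pairs of libraries and coloured symbols the single pairs. The 40S and 60S ribosomal protein lists lie highest, at 0.654 and 0.608, glycolysis and fermentation is the lowest protein-coding list at −0.424, and small nucleolar and nuclear RNAs are at −1.63.

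Mitochondrial functions were split by complex. Of 43 nuclear genes for subunits of oxidative phosphorylation 28 rose (65.1%, against 12.7% over all genes) and 1 fell (median 0.473, pairs 0.377, 0.511 and 0.364). COX12, a subunit of cytochrome c oxidase, had 623, 735 and 297 CPM in polysomal libraries, against 328, 411 and 201 CPM in total libraries. Polysomal replicate 3 lay under 2 of the total libraries, and each pair showed a gain (0.78, SE 0.13, edgeR adjusted p 0.00067). ATP17 of the ATP synthase (0.74), COX7 (0.84) and the cytochrome c gene CYC7 (0.57) rose likewise. The one that fell was NDI1 (−0.40), the NADH dehydrogenase that replaces complex I in yeast, with 1542 coding bases, against 252 in COX12. Without replicate 2 the count higher was 17.

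Of 33 mitochondrial import genes 11 rose (33.3%, against 12.7% over all genes) and 1 fell (3.03%, against 9.61%). The small intermembrane chaperones TIM8 (0.53), TIM9 (0.37), TIM10 (0.39) and TIM13 (0.51), which escort membrane proteins, were among those higher, and so was HOT13 (0.58), with 35.4, 52.1 and 43.2 CPM in polysomal and 24.9, 29.4 and 32.4 CPM in total libraries. MIA40, the oxidoreductase that folds proteins imported into the same space, had 94.3, 111 and 116 CPM in polysomal libraries and 139, 153 and 168 CPM in total libraries. Its polysomal libraries were all below its total libraries (−0.52, SE 0.09). Mitochondrial ribosomal protein genes did not behave as a block: 7 of 75 rose and 10 fell, shares close to those over all genes, with a median of −0.0503. Without replicate 2 there were 4 import genes and 0 mitochondrial ribosomal protein genes higher. MRPL32 stood lowest, with 23.5, 22.8 and 16.9 CPM in polysomal and 35.1, 46.1 and 36.3 CPM in total libraries (−0.90, SE 0.10). In the tricarboxylic acid cycle 1 of 19 rose, PDB1 (0.28), and 1 fell, LPD1 (−0.35), and each call was lost in 7 of the 9 fits with a library or pair left out.

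In metabolism, none of 20 glycolysis and fermentation genes rose and 7 fell (35%, against 9.61% over all genes), with a median of −0.424. The polysomal pool still gave these genes 7.214, 6.965 and 9.338% of reads, against 9.597, 11.79 and 11.63% in the total pool. ENO1, 1 of 2 genes for enolase, had 2859, 2196 and 3010 CPM in polysomal libraries and 4331, 4254 and 4408 CPM in total libraries. The total libraries lay close together and well above the polysomal ones (−0.71, SE 0.16, edgeR adjusted p 0.0041). ENO2 (−0.65) and the pyruvate kinase gene CDC19 (−0.65) showed the same separation. Without replicate 2, 0 genes of this list were called, those 3 included, and without total replicate 1 there were 10.

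Of 59 amino acid biosynthesis genes tested 13 fell (22%) and 5 rose (8.47%), against 9.61% lower and 12.7% higher over all genes. GLN1 for glutamine synthetase had 402, 340 and 373 CPM in polysomal libraries, against 611, 583 and 750 CPM in total libraries. The groups did not overlap (−0.81, SE 0.14). The tryptophan synthase gene TRP5 fell by 0.49 on the log2 scale. The 5 that rose were HIS3 (0.70), TRP1 (0.45), HIS1 (0.33), HIS2 (0.31) and TRP4 (0.30), all of histidine or tryptophan synthesis. None of the 5 stayed called without replicate 2, where the list had 0 higher and 4 lower. Purine synthesis had 1 gene of 15 higher (6.67%), ADE8 (0.46), and 4 lower (26.7%), among them IMD4 (−0.47) and ADE2 (−0.35). Of 23 ergosterol synthesis genes 0 rose and 3 fell (ERG13, ERG1 and ERG5, at −0.45, −0.44 and −0.37), a share near that over all genes. Of 48 plasma membrane transporter genes 0 rose and 9 fell (18.8%), including the phosphate transporter PHO84 (−0.50) and the hexose transporter HXT2 (−0.63). Without replicate 2 the named purine and ergosterol genes other than IMD4 lost their calls, and without replicate 3 there were 3 transporter genes lower.

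Many small antioxidant and stress protein genes were called higher. Of 24 genes for thioredoxins, glutaredoxins, peroxiredoxins and related enzymes 13 rose (54.2%, against 12.7% over all genes) and 1 fell (median 0.391). TRX2, a cytosolic thioredoxin, had 1248, 1202 and 1199 CPM in polysomal libraries and 569, 833 and 531 CPM in total libraries. The polysomal libraries were almost level and all above the total ones (0.94, SE 0.13, edgeR adjusted p 0.00022). TRX1 (0.86) and the glutaredoxin gene GRX1 (0.72) rose in each pair with overlapping groups. The member that fell, GPX1 (−0.46), encodes a glutathione peroxidase.

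Of 20 small general stress genes 11 rose (55%, against 12.7% over all genes) and 2 fell (10%, against 9.61%). HSP12, a membrane-binding heat shock protein, had 25561, 24252 and 20677 CPM in polysomal libraries, against 16621, 12656 and 12524 CPM in total libraries, with no overlap (0.76, SE 0.13). CRS5, known for a copper-binding metallothionein but annotated as a pseudogene in R64, went the opposite way. It had 13.1, 7.27 and 7.63 CPM in polysomal libraries and 47.3, 17.2 and 26.8 CPM in total libraries (−1.66, SE 0.17, edgeR adjusted p 1.1e-05). Without replicate 2 the list had 7 higher and 1 lower. The other copper metallothionein genes, the repeated copies CUP1-1 (0.61) and CUP1-2 (0.50), were higher. PBI2, an inhibitor of vacuolar proteinase B that is not in this list, rose by 0.90 (SE 0.15). It had 774, 1044 and 719 CPM in polysomal and 433, 519 and 408 CPM in total libraries.

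Large chaperones were among the genes that fell. Of 32 cytosolic chaperone genes 8 were lower (25%, against 9.61% over all genes). They include the Hsp70 genes SSA1 (−0.54) and SSA2 (−0.53), the Hsp90 genes HSC82 (−0.48) and HSP82 (−0.41) and their partner STI1 (−0.49). SSA2 had 658, 514 and 569 CPM in polysomal libraries, against 884, 775 and 842 CPM in total libraries. Those groups did not overlap, and the median of the list was −0.191. SBA1, a small Hsp90 partner with 651 coding bases, was the only one higher, at 0.47. Without replicate 2 there were 4 lower. In the endoplasmic reticulum the small SSS1 of the translocation channel (0.82) and OST5 of the oligosaccharyltransferase (0.93) rose, whereas KAR2, the luminal Hsp70 (−0.48), ERO1 (−0.44) and SEC63 (−0.40) fell. In that list 9 of 43 were higher (20.9%) and 3 lower (6.98%), against 12.7% and 9.61% over all genes. OST5 lost its call in 7 of the 9 fits with a library or pair left out, and the list had 4 higher and 1 lower without replicate 2.

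Within single complexes, small subunits could be higher beside larger ones that were not. Of 19 vacuolar ATPase genes 8 rose (42.1%, against 12.7% over all genes) and 1 fell (5.26%, against 9.61%). VMA7, a small subunit of its catalytic part, had 911, 1031 and 563 CPM in polysomal libraries, against 512, 498 and 358 CPM in total libraries (0.85, SE 0.13, no overlap), whereas VMA2, with 1554 coding bases, was lower (−0.38). In the actin cytoskeleton 8 of 33 rose (24.2%), among them profilin, PFY1 (0.75), cofilin, COF1 (0.72), and the Arp2/3 subunit ARC19 (0.66). Another 5 fell (15.2%, against 9.61% over all genes), led by the actin-binding protein ABP1 (−0.57), with 0 lower without replicate 2. The median of the actin list was −0.0586. Of 34 proteasome genes 6 rose and 0 fell, with SEM1 (0.59) and PRE1 (0.55) at the top, a share near that over all genes, and 3 rose without replicate 2. Of 11 histone genes 4 rose (36.4%), HHF1 (0.47), HTZ1 (0.43), HTA2 (0.42) and HHT2 (0.40), and without replicate 2 the list had 1 higher. Of 34 cell wall protein genes 4 fell, UTR2 (−0.70), HSP150 (−0.56), PIR3 (−0.44) and GAS1 (−0.28), and 1 rose, CWP2 (0.63), and HSP150 and CWP2 lost their calls without replicate 2. The share lower is near that over all genes. Nuclear pore genes (1 higher and 3 lower of 33), cyclins and their kinases (1 and 1 of 20) and short spindle proteins (2 and 0 of 12) had few calls, at shares near or below those over all genes.

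**Figure D4:**
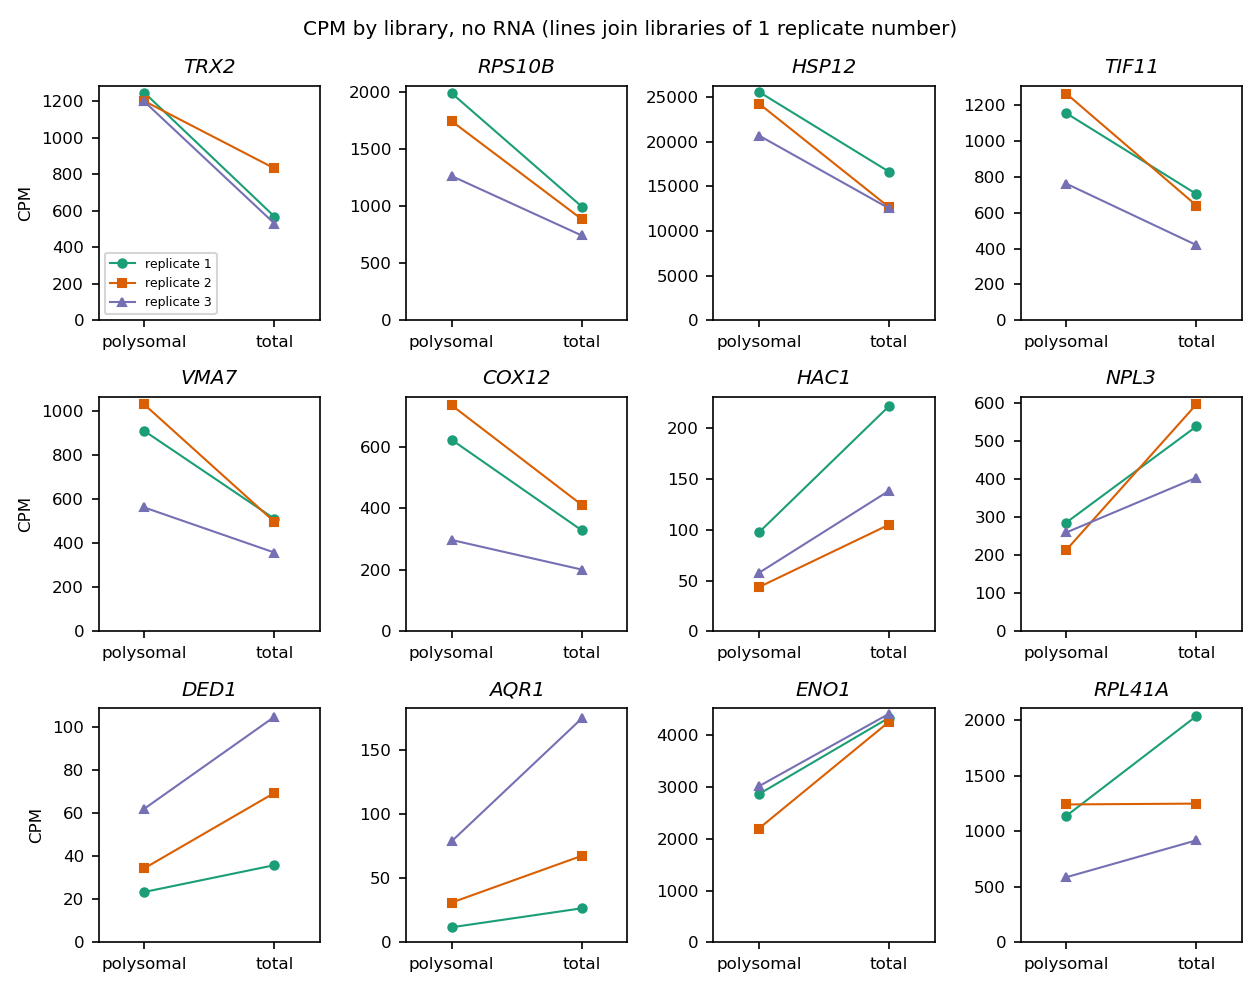
TMM-scaled CPM of 12 genes in each of the 6 no RNA libraries, polysomal at the left and total at the right, with lines joining libraries of 1 replicate number and linear axes that start at 0. TRX2, RPS10B, HSP12, TIF11, VMA7 and COX12 were higher in polysomal mRNA in each pair, HAC1, NPL3, DED1, AQR1 and ENO1 were lower, and RPL41A was level in pair 2.

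When the smooth trend on coding length was taken out of the log2 fold changes, most of the list medians above 0 came down. The median of the ribosomal protein genes became 0.381, that of oxidative phosphorylation 0.238, that of thioredoxins and related genes 0.234 and that of small stress genes 0.214, while glycolysis and fermentation stood at −0.359 and ribosome biogenesis at −0.171. Lsm and Sm proteins came down to 0.118 and RNA polymerase subunits to 0.0308. The medians of histones (−0.0351), short spindle proteins (−0.059) and cyclins and their kinases (0.0219) changed sign, and that of mitochondrial ribosomal proteins moved away from 0, to −0.178. TRX2 kept 0.65 and RPS10B 0.63, and HAC1 stood at −1.37 and CRS5 at −1.94.

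Single mRNAs with known control of translation included the lowest protein-coding gene of at least 20 CPM. HAC1, the transcription factor of the unfolded protein response, is known to be kept silent by its unspliced intron. It had 97.3, 43.5 and 57.5 CPM in polysomal libraries, against 221, 105 and 138 CPM in total libraries. All polysomal libraries lay below the total ones (−1.23, SE 0.17, edgeR adjusted p 0.0003). CLN3, a G1 cyclin with a short upstream open reading frame, had 20, 28.6 and 36.2 CPM in polysomal and 27.4, 42.4 and 61.1 CPM in total libraries (−0.60, SE 0.12). GCN4, the activator of amino acid synthesis, whose leader holds several upstream reading frames, had 807, 1071 and 714 CPM in polysomal libraries and 1056, 788 and 871 CPM in total libraries. Pair 2 was higher and the others lower, and the value of −0.08 (SE 0.15) missed the threshold. CPA1 (−0.04, SE 0.10) and YAP1 (0.07, SE 0.11), with upstream reading frames too, were also not called. Of the 20 mRNAs listed for such control, 4 fell (HAC1, ATG41 at −0.67, CLN3 and IMD4) and 1 rose, against 9.61% lower and 12.7% higher over all genes. In each of the 9 fits with a library or pair left out, 4 stayed lower. IMD4 is also counted under purine synthesis above, and whether its translation is controlled in this way was not checked.

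Other mRNAs low on polysomes belonged to no list. TOS6, a cell wall protein gene, had 21.7, 18.4 and 18.4 CPM in polysomal libraries, against 48.8, 36.1 and 47.3 CPM in total libraries (−1.17, SE 0.11, edgeR adjusted p 3.4e-06). The groups were well apart, and TOS6 was called without the replicate block too. AQR1, a plasma membrane exporter, had 11.8, 31 and 78.7 CPM in polysomal mRNA and 26.6, 67.4 and 174 CPM in total mRNA, so that replicates differed more than fractions while each pair fell (−1.13, SE 0.15). NPL3, an RNA-binding protein of mRNA packaging and export, had 286, 214 and 260 CPM in polysomal libraries and 538, 596 and 404 CPM in total libraries (−0.98, SE 0.21), and lost its call without replicate 2. Further genes of the lowest 12 were AQY1, an aquaporin (−0.95), SKS1, a protein kinase (−0.89), and YGR079W (−1.07), YOR338W (−1.05) and YGR035C (−0.91). Of the highest 12, ECM15 (0.91), NTF2 for a nuclear import factor (0.86) and MRA1 (0.89) also belonged to no list.

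Of the 34 lists plotted, the 2 of noncoding RNAs, which are not translated, had the lowest medians. They were carried into poly(A)-enriched libraries at 0.01053, 0.01174 and 0.006989% of reads in polysomal libraries, against 0.02512, 0.03128 and 0.02339% in total libraries. Of 46 small nucleolar and nuclear RNAs with enough reads, 24 fell (52.2%, against 9.61% over all genes) and 0 rose (median −1.63). Of 8 other stable noncoding RNAs 3 fell (37.5%). snR30, needed for 18S rRNA processing, had 4, 9 and 11 reads in the polysomal libraries and 60, 119 and 115 reads in the total libraries (−3.73, SE 0.32, edgeR adjusted p 1.9e-06). The spliceosomal U2 RNA LSR1 had 12, 23 and 24 reads in polysomal libraries, against 120, 292 and 176 reads in total libraries (−3.37, SE 0.32). TLC1, the telomerase RNA, had 63, 57 and 113 reads in polysomal and 225, 250 and 276 reads in total libraries (−1.86, SE 0.18). For these RNAs every polysomal library was below every total library. All were called without the replicate block too, as were 7 of the small RNA list in all. snR8 (−3.19), snR128 (−3.02) and snR32 (−2.79) rest on at most 2 reads in a polysomal library. snR128, with 2, 22 and 4 reads in the total libraries, lost its call in 4 of 7 fits with a library or pair left out, and snR32 lost it without replicate 2. Without replicate 2, 18 of the list were called.

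The same comparison in spheroplasts given rancRNA_18-M2 used separate libraries within the same fit. There 1010 genes (16.8%) were higher and 934 (15.5%) lower in polysomal than in total mRNA. Of the 762 genes called higher with no RNA, 760 had the same sign with rancRNA_18-M2 and 725 were called higher, and of the 578 called lower, 576 had the same sign and 495 were called lower. The test of the difference between both electroporations called 0 of 6016 genes (0%) in edgeR, with 62 at an unadjusted p under 0.05, and 0 in DESeq2 with the block, with 75. TRX2 was at 0.94 with no RNA and 1.01 with rancRNA_18-M2, a difference of −0.08 (SE 0.18). HAC1 was at −1.23 with no RNA and −1.35 with rancRNA_18-M2 (difference 0.12, SE 0.24), ENO1 at −0.71 and −1.01 (difference 0.31, SE 0.22), and snR30 at −3.73 and −2.55 (difference −1.18, SE 0.52). Missing the threshold does not show that loading was alike. The ribosomal protein median was 0.634 with no RNA and 0.794 with rancRNA_18-M2.

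**Figure D5:**
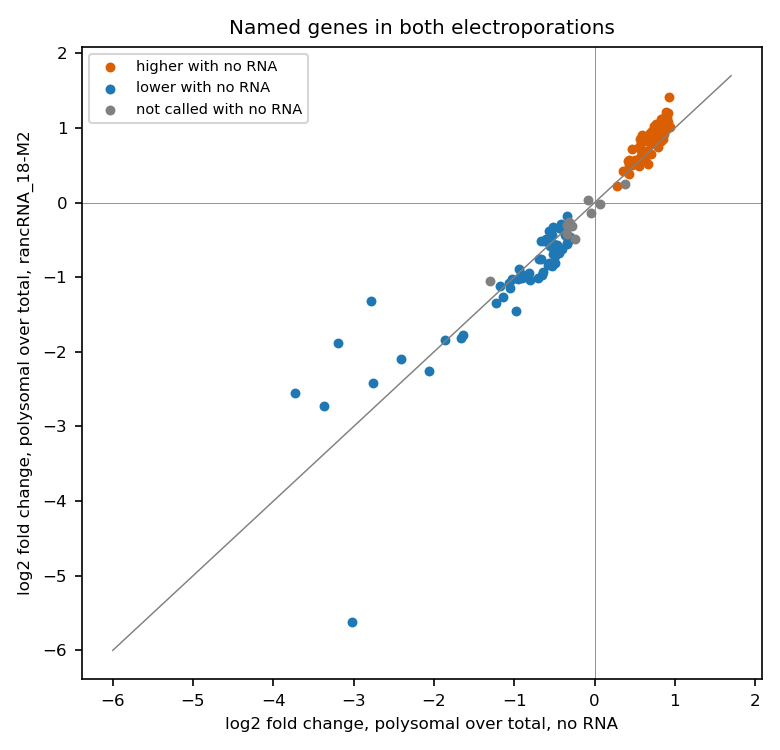
Log2 fold change of polysomal over total mRNA for the named genes, with no RNA on the horizontal axis and with rancRNA_18-M2 on the vertical axis (3 polysomal and 3 total libraries each). Colours give the call with no RNA, and the diagonal marks equal values. Genes higher with no RNA lie at upper right and those lower at lower left, with TRX2 at 0.94 and 1.01 and the noncoding RNA snR30 at −3.73 and −2.55.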

How the data were processed

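Poly(A) RNA was sequenced from trm10∆ spheroplasts. Each deposited file is 1 library of 7126 genes with its raw read counts, which the authors had not normalized. The authors used FastQC, HISAT2 and featureCounts, per the submitters' processing notes. Not given in the sources used here were tool versions, the build, the gene models and how strand was handled. Overlapping genes and near-identical copies are therefore uncertain. A line without a gene name holds no value. IDs were matched to RefSeq R64 for names, coding length, introns and sequences: 6048 matched and 1078 did not, holding 0.0619 to 0.109% of reads of the no RNA libraries. No coordinates are given.

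The test on the counts was that of edgeR 4.0.16 under R 4.3.3 (quasi-likelihood, TMM scaling, filterByExpr), with 1 coefficient per group, the replicate number as a block, 14 libraries of 5 groups and 7 residual degrees of freedom. Polysomal against total mRNA is paired by number. Deviations from group means correlated at 0.451 to 0.816 between libraries of the same number in other groups (26 pairs) and at −0.615 to 0.0336 between different numbers (52 pairs), and at 0.686, 0.588 and 0.816 for the 3 no RNA pairs. The labels do not say what a number stands for. The pairing follows the numbers in the titles and was not decided by this check. Because deviations are taken from means of few libraries, positive correlations within a number push those between numbers below 0. The contrast between both ranges is therefore partly built in. The 2 rancRNA_18 polysomal files were equal in all 7126 genes and were left out of this fit. Calls are at a Benjamini-Hochberg adjusted p under 0.05 over all genes tested. The SE given with a log2 fold change was worked back from the test, as the absolute fold change over the square root of its F statistic. Log CPM for principal components used a prior count of 2, and the length trend is a loess curve of span 0.5 on log coding length. The procedure was tested on simulated counts. Their replicate effect was built in by number from these same libraries, so that test cannot check the pairing. Alternatives were no block, DESeq2 1.42.0, RLE scaling, no filter, the 6 libraries alone, the rancRNA_18 polysomal library included, removal of a trend on coding GC, and each replicate left out.

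Named genes are up to 12 in each direction of largest change, at 20 CPM or more on average and with the same sign in 3 pairs, up to 5 noncoding RNAs each way, up to 3 per list with the smallest p, GCN4, HAC1, CPA1, YAP1 and CLN3, and up to 3 called genes each way under 300 and over 3000 coding bases. Others are named as called members of a list or as exceptions seen in the values. The groups, the comparison and the gene lists were chosen with earlier results of these data known. A result for 1 gene is not reported here.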

Additional observations from a re-analysis of the deposited data

How the results depend on the processing

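Against 762 genes higher and 578 lower, the fit without the replicate block gave 0 and 12, all 12 among the 578, and DESeq2 with no block gave 44 and 71. Leaving out a library or a pair of the no RNA groups gave 399 to 759 higher and 247 to 544 lower, and leaving out 1 replicate number in every group gave 116 to 687 higher and 87 to 481 lower, the fewest without replicate 2. With the block, the 6 libraries alone gave 754 and 622, RLE scaling 813 and 495, no filter on low counts 741 and 562, DESeq2 858 and 536, and removal of a trend on coding GC, chosen after seeing the data, 949 and 807. Including the rancRNA_18 polysomal library as replicate 1 or as replicate 2 gave 753 and 579. It was then the only library of its group, so its number could not alter the result. It added no residual degrees of freedom (7, as in the main fit). These 2 fits therefore cannot check the number given to that library. The difference from rancRNA_18-M2 called 0 genes under each setting in which it was fitted. RLE moved the median of all genes to −0.004959 from −0.02505. Of 124 named genes called, 82 kept the call in each of 9 fits with a library or pair left out. Without the block, 118 of the 124 lost it. The alternatives were followed for 127 of the 134 named genes with values, leaving out AI1, SAG1, MFA1, UPF3, KGD2, ASK1 and PCL1. Among the 127, the sign turned only for the uncalled GCN4 and YAP1. GCN4 ran from −0.34 to 0.102 in these 9 fits (0.102 without replicate 1, 0.0193 without replicate 3, 0.0247 without polysomal replicate 3, 0.068 without total replicate 1). YAP1 ran from −0.0176 to 0.164 (−0.000167 without replicate 1, −0.0176 without polysomal replicate 1). The cause of these changes was not tested. Coding GC ran against the polysomal share in pair 1 (Spearman rho −0.276) and with it in pair 2 (0.257), across genes. Depth limits the small noncoding RNAs, of which 46 of 79 could be tested, and the mitochondrially encoded genes, of which 1 of 18 could.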

Other observations

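Of genes often used as strain markers, LEU2 and LYS2 had 0 reads in all 6 libraries, which allows up to 0.0963 to 0.18 CPM at 3 reads per library, and URA3 had 0, 2 and 0 reads in polysomal libraries and 0, 0 and 8 in total libraries. MET17 had 929, 396 and 1207 reads in polysomal libraries and 1155, 719 and 1025 in total libraries. HIS3 had 4355, 4290 and 5514 reads in polysomal libraries, against 3639, 2795 and 2025 in total libraries. Genes of both mating types were read. The alpha-factor gene MF(ALPHA)1 had 2109, 3248 and 1702 reads in polysomal libraries and 2243, 5187 and 1995 in total libraries, while MFA1, for a-factor, had 17, 19 and 29 reads in polysomal and 24, 26 and 24 in total libraries. The other alpha-factor gene, MF(ALPHA)2, had 13, 31 and 5 reads in polysomal libraries and 16, 20 and 5 in total libraries. In polysomal libraries the alpha-cell gene STE3 had 269, 350 and 617 reads, and SAG1 had 275, 209 and 496. Among a-cell genes, STE6 had 149, 175 and 391 reads there, and BAR1 had 81, 154 and 146. STE2 had 76, 50 and 130 reads and MFA2 had 7, 12 and 8.

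Of 9 genes specific to either mating type, 1 passed the test: MF(ALPHA)1 was lower in polysomal mRNA (log2 fold change −0.42, SE 0.14, edgeR adjusted p 0.035), and its call was lost in 6 of 9 fits with a library or pair left out. Of 18 mitochondrially encoded genes, 1 had enough reads to be tested, AI1, with at most 0.115 CPM in a polysomal library and at most 0.54 CPM in a total library.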
